A study of Mus musculus with 10 samples.

Results

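Excitation-contraction coupling is the chain of events by which an electrical signal at the surface of a muscle fibre releases calcium inside it. The group described here holds 10 genes of that chain, taken by symbol from the expression tables: Ryr1, Cacna1s, Cacnb1, Cacng1, Casq1, Atp2a1, Sln, Jph1, Jph2 and Stac3. All 10 were found among the 18025 genes of the tables, and all 10 were among the 12697 genes that passed the filter on low counts. Messenger RNA was sequenced from the gastrocnemius, a calf muscle made mostly of fast fibres, of C57BL/6 mice, all wild type and with a listed age of 8 weeks. 5 libraries came from control mice and 5 from mice labelled COPD (chronic obstructive pulmonary disease), which the series title says was modelled with cigarette smoke. The labels give no sex, no exposure dose or duration and no hour of collection, and they do not say whether each library came from its own animal, so p-values measure the spread between these libraries.

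In a resting fibre, the voltage sensor Cav1.1 sits in the transverse tubule, an inward fold of the surface membrane, opposite the calcium release channel RyR1 of the sarcoplasmic reticulum. Junctophilins hold the facing membranes together, and depolarization of the tubule opens the release channel through its contact with the voltage sensor. Calsequestrin stores calcium inside the reticulum, and the SERCA pump returns calcium there to end the contraction, under the control of small inhibitory membrane proteins such as sarcolipin.

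The 10 libraries held between 14085854 and 17251034 expected counts (estimated reads per gene). The labelled tissue matched its markers. The summed level of 9 fast-fibre genes lay between 140172 and 176924 TPM (a transcript level scaled for length and depth) in control and between 153146 and 188890 TPM in COPD. The summed level of 8 slow-fibre genes lay between 317 and 1823 TPM in control and between 146 and 657 TPM in COPD, with 0 of 8 tested genes past the threshold and 0 of 8 above 0 in log2 fold change. A list of 10 macrophage markers summed to between 107 and 186 TPM in control and between 43.5 and 142 TPM in COPD, with 1 of 10 above 0 and 0 past the threshold. Several library-level patterns touch the results below. Control replicates 1 and 4 had the highest slow-fibre sums, 1823 and 1427 TPM. The summed level of 5 red cell markers was lowest in control replicate 4 (141 TPM) and highest in COPD replicate 5 (4069 TPM). In the other libraries it lay between 357 and 3023 TPM, and its part in the values below was not tested. COPD replicates 1, 4 and 5 held 4, 3 and 3 counts summed over 3 Y-linked genes (Kdm5d, Eif2s3y and Ddx3y), against at least 1118 in each other library. Libraries nearly without such counts thus occurred in the COPD group only, so this difference is partly confounded with that between the groups. The main fit has no term for it.

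None of the 10 genes passed the test between COPD and control (edgeR's quasi-likelihood test, adjusted p under 0.05 by Benjamini-Hochberg over all genes). DESeq2, voom with sample weights and limma on log2(TPM + 1) also called 0 of the 10. Of all tested genes, 0.063% passed in edgeR, 1.08% in voom and 2.31% in DESeq2, and limma called 67 of 11190 genes. Before adjustment, 2 of the 10 had p under 0.05, beside 14.6% of all tested genes: Casq1 on the higher side (7.94% of all genes) and Sln on the lower side (6.64%). The groups overlapped for all 10 genes, and they were apart for 2.84% of all genes tested. The median log2 fold change of the 10 was -0.02, against -0.01 over all tested genes, with 5 of the 10 below 0 (52.0% of all genes were below 0). On the TPM scale, where the median of all genes was -0.18, 9 of the 10 were below 0, beside 81.1% of all genes. In simulated data of the same size, edgeR recovered 12% of genes changed by 1.5-fold and 71% of those changed 2-fold, so changes of the smaller size were mostly missed there. These rates are over 100 changed genes and are not given for genes with the level and spread of the 10. Apart from Casq1 and Sln, the 95% intervals of the 10 genes reached no lower than 0.73-fold (Cacnb1) and no higher than 1.36-fold (Cacna1s).

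By level, the pump stood far above the other genes and sarcolipin stood last. Atp2a1 encodes SERCA1, the calcium pump of fast fibres, and averaged 23615 ± 4179 TPM in control and 21608 ± 3921 TPM in COPD (SD, n = 5 each). It took between 3.58% and 5.69% of all counts and was the most or the next most counted gene in every library. Casq1 came next with 2733 ± 684 and 3492 ± 285 TPM. The order then ran from Cacng1 (646 ± 71.9 and 538 ± 125 TPM) through Ryr1 (487 ± 63.1 and 410.0 ± 66.8 TPM), Jph2, Cacna1s, Cacnb1 and Stac3 to Jph1 (106 ± 16.6 and 88.9 ± 14.1 TPM). Sln was lowest, at 40.9 ± 47.7 and 8.86 ± 10.4 TPM. Each gene down to Ryr1 lay above the next in all 10 libraries. Further down, neighbours crossed: Jph2 was above Cacna1s in 8 of 10 libraries, Cacna1s above Cacnb1 in 9, Cacnb1 above Stac3 in 7 and Jph1 above Sln in 9. Stac3 was above Jph1 in all 10.

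**Figure D1:**
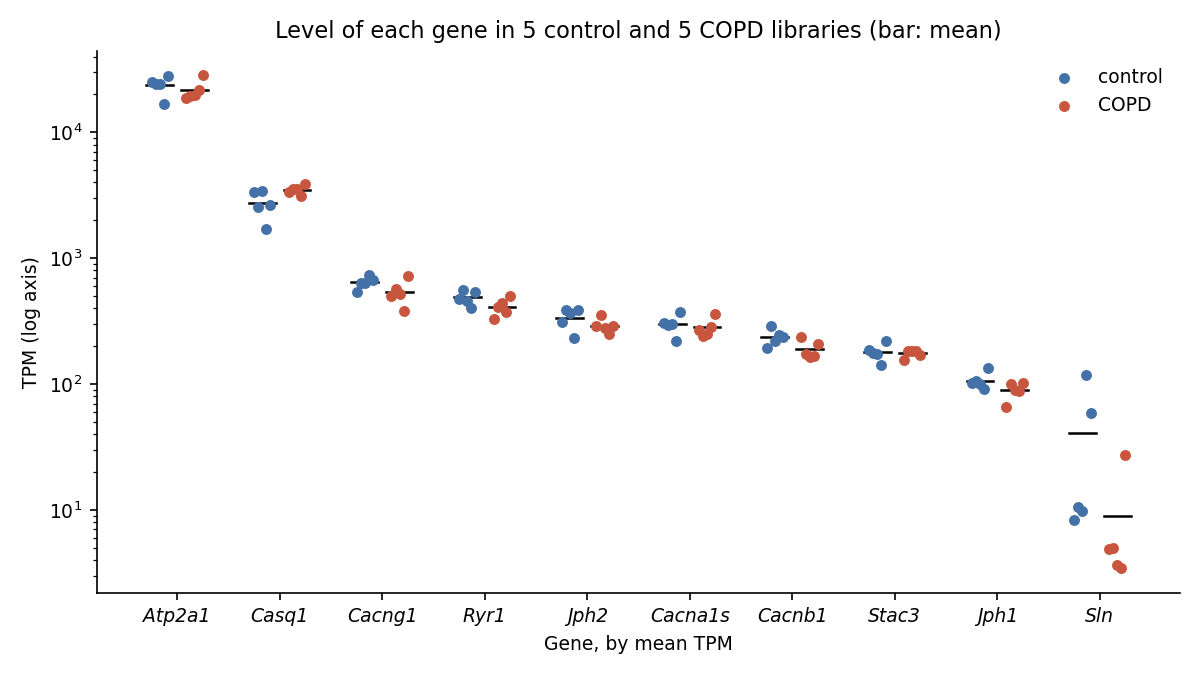
TPM (log axis) of each of the 10 genes in 5 control (blue) and 5 COPD (red) libraries, with a bar at each group mean and genes ordered by mean TPM. Levels ran from Atp2a1 near 23615 TPM in control to Sln, whose libraries were spread between 3.44 and 117 TPM.

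The voltage sensor genes showed no difference beyond the spread of the libraries. Cacna1s encodes the pore-forming subunit of Cav1.1. It was at 1036, 980.5, 1159.6, 733 and 1208 CPM (CPM is the count scaled to library size, with TMM factors) in control replicates 1 to 5. The COPD values, replicates 1 to 5, were 1149.7, 1008, 964, 1069.7 and 1357 CPM. The low value of control replicate 4 and the high one of COPD replicate 5 stood at the ends, and the ranges overlapped. Its difference on the log2 scale was 0.12 ± 0.15 (SE; adjusted p = 0.769 by edgeR), with a 95% interval from 0.87-fold to 1.36-fold.

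Cacnb1, the beta subunit that carries the channel to the tubule membrane, lay between 239.9 and 339 CPM in control (median 301) and between 219 and 326 CPM in COPD (median 254). Its log2 fold change was -0.15 ± 0.14 (adjusted p = 0.674). Cacng1, the gamma subunit, lay between 349 and 475 CPM in control and, in COPD, between 276 and 521 CPM, the widest COPD range of the 3 subunits in proportion to its mean (coefficient of variation 22.2%). Its log2 fold change was -0.06 ± 0.16 (adjusted p = 0.902). Stac3, an adaptor protein that couples the voltage sensor to the release channel, was at 156 ± 24.3 CPM in control against 176 ± 12.6 CPM in COPD (SD, n = 5 each). The lowest of its 10 values, 119 CPM, was in control replicate 4, and the other 9 libraries lay between 149 and 194 CPM. The log2 fold change of 0.17 ± 0.12 did not pass (adjusted p = 0.546), and its 95% interval reached from 0.94-fold to 1.35-fold.

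The means of the release channel gene differed by less than the spread of the libraries. Ryr1 was at 3612, 4250.3, 4033, 3051 and 3985 CPM in control replicates 1 to 5. COPD replicates 1 to 5 held it at 3102, 3875, 3858, 3174 and 4250.2 CPM. Low libraries occurred in both groups, control replicate 4 and COPD replicates 1 and 4. In log2 units the groups differed by -0.05 ± 0.13 (adjusted p = 0.898), with a 95% interval from 0.79-fold to 1.18-fold.

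Ryr1 also kept a narrow range in CPM, where its highest library was 1.39 times its lowest. In TPM its highest library was 1.72 times its lowest. The pooled spread of log2 CPM within groups was smaller than that of Ryr1 in 29.6% of all tested genes. Profiles of log2 CPM over the 10 libraries, each centred on its own mean, were compared with that of Ryr1. Among 9035 genes of at least 5 CPM, the 3 closest were Cdk12, Atp13a3 and Nipbl. Their root mean square differences were 0.08, 0.09 and 0.09, beside an SD of 0.18 for the profile of Ryr1 itself. The ratio of Ryr1 to Cacna1s in TPM ran from 145% to 191% in control and from 121% to 177% in COPD. Between groups the log2 ratio differed by -0.18 (exact permutation test, two-sided, p = 0.222, adjusted p = 0.296 over 4 ratios; the smallest p that 252 relabelings allow is 0.00794).

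The junctophilin genes did not pass the test either. Jph1, the skeletal muscle form, was at 285 ± 37.6 CPM in control against 276 ± 39.5 CPM in COPD (SD, n = 5 each; difference on the log2 scale -0.05 ± 0.13, adjusted p = 0.902 by edgeR). Its lowest value was 219.8 CPM in COPD replicate 1, and its highest was 340.4 CPM in control replicate 5. Jph2, the form that heart muscle shares, had the same mean of 796 CPM in both groups, with an SD of 170.4 in control and 135 in COPD. Its log2 fold change was 0.00 ± 0.17 (adjusted p = 0.999), and its 95% interval ran from 0.78-fold to 1.29-fold. Control replicate 4 was lowest at 535 CPM and COPD replicate 2 highest at 1005 CPM.

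Casq1, which encodes the calsequestrin of fast fibres, came closest to a difference on the higher side without passing the test. It was at 3416, 2585, 4002, 1755 and 2629 CPM in control replicates 1 to 5. Among COPD replicates 1 to 5 it was at 4303, 4474, 4188, 3599.6 and 4435 CPM. The COPD libraries lay close together (coefficient of variation 8.43%, against 29.9% in control), and 4 of the 5 were above every control. Control replicate 3 lay above COPD replicate 4, so the groups overlapped. On the log2 scale the difference was 0.55 ± 0.19 (adjusted p = 0.227 by edgeR), with a 95% interval from 1.10-fold to 1.94-fold.

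The direction of Casq1 did not rest on the lowest library. Without control replicate 4 its log2 fold change was 0.41 (adjusted p = 0.301), and over the 10 fits that each left out 1 library it ran from 0.41 to 0.69. In the 7 libraries with Y-linked counts, which leave COPD replicates 2 and 3 against all 5 controls, it was 0.60 (adjusted p = 0.237). On the TPM scale it was 0.39 with limma on log2(TPM + 1) (adjusted p = 0.167), where the median of all genes was -0.18. In such whole-tissue samples, a change in the number of cells of a type, such as fewer cells, cannot be told apart from a change in RNA per cell.

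Casq2, the calsequestrin of slow fibres and heart, did not pass the test with all libraries. It was at 24.2 ± 9.53 CPM in control against 16.3 ± 12.2 CPM in COPD (SD, n = 5 each; difference on the log2 scale -0.57 ± 0.46, adjusted p = 0.617 by edgeR). The value was -0.30 without control replicate 4 and -1.04 without COPD replicate 5. In the 7 libraries with Y-linked counts it was lower, at a log2 fold change of -2.00 (adjusted p = 0.0329), with COPD replicates 2 and 3 at 3.99 and 8.01 CPM. These 2 libraries also had the lowest slow-fibre sums of the 10, 146 and 255 TPM, and the median log2 fold change of the 8 slow-fibre genes over all libraries was -1.20. The part of the slow-fibre genes in the Casq2 values was not tested. In TPM, Casq2 was between 0.374% and 1.68% of Casq1 in control and between 0.0649% and 0.563% in COPD. The log2 ratio differed by -1.47 (exact permutation test, two-sided, p = 0.0873, adjusted p = 0.238 over 4 ratios). Without COPD replicate 5 the difference was -1.81 (exact permutation p = 0.0317, adjusted p = 0.0635), and without control replicate 4 it was -1.10 (exact permutation p = 0.159, adjusted p = 0.444).

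**Figure D2:**
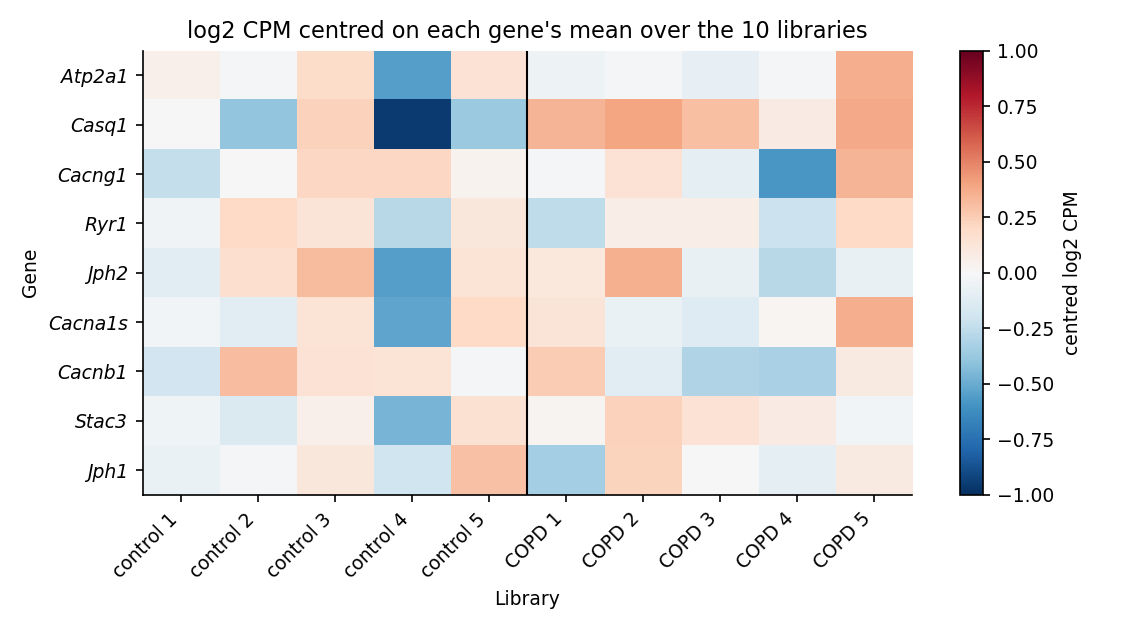
log2 CPM of 9 of the 10 genes (all but Sln, whose spread is far wider), each centred on its mean over the 10 libraries, with genes in rows and libraries in columns. Control replicate 4 is low for most genes, down to -0.96 for Casq1, and the COPD columns are all above 0 for Casq1.

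A single control library set the low end for most of the group. Control replicate 4 held the lowest value of the 10 libraries for 6 of the 10 genes (Ryr1, Cacna1s, Casq1, Atp2a1, Jph2 and Stac3). Leaving out Sln, the median of the other 9 centred log2 CPM values was -0.47 in that library and between -0.10 and 0.20 in the other 9 libraries. The same library had the highest Sln value, a slow-fibre sum of 1427 TPM and the lowest share of counts in its 10 most abundant genes (21.6%, against 25.8% to 30.5% in the others). Its red cell sum, 141 TPM, was also the lowest of the 10 libraries. The part of these measures in its low values was not tested. Without it the median log2 fold change of the 10 genes was -0.07, and 0 of the 10 passed (edgeR).

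The pump gene did not pass the test, and its sign turned on single libraries. Atp2a1 was at 48071, 45699, 52583, 31580 and 51172 CPM in control replicates 1 to 5. In COPD replicates 1 to 4 it lay between 43705 and 45972 CPM, and COPD replicate 5 stood apart at 59800.4 CPM. The lowest control and the highest COPD library therefore decided the spread of both groups. Its difference on the log2 scale was 0.07 ± 0.16 (adjusted p = 0.892), with a 95% interval from 0.82-fold to 1.34-fold, and its sign changed to -0.04 without control replicate 4 and to -0.02 without COPD replicate 5. In the reference annotation (GENCODE M21, of another build than the files) an exon of Atp2a1 overlaps one of Rabep2 on the opposite strand. The Atp2a1 counts were not whole numbers in any of the 10 libraries, as estimated counts can be where reads fit several genes.

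Atp2a2 encodes SERCA2, the pump of slow fibres and heart. It was at 138, 30.5, 30.4, 74.3 and 34.0 CPM in control replicates 1 to 5 and between 30.1 and 48.3 CPM in the COPD libraries. Control replicates 1 and 4 stood above all others, and these were also the libraries with the highest slow-fibre sums. The log2 fold change of -0.69 ± 0.39 did not pass (adjusted p = 0.445), and it was -0.15 without control replicate 1. Relative to Atp2a1 in TPM, Atp2a2 made up between 0.0450% and 0.227% in control and between 0.0514% and 0.0691% in COPD (difference of the log2 ratio -0.50, exact permutation test, two-sided, p = 0.429).

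Sarcolipin varied more than any other of the 10 genes, and it did so within both groups. Sln encodes a small membrane protein that lowers the efficiency of calcium transport by SERCA. It was at 2.201, 2.78, 2.99, 30.9 and 14.9 CPM in control replicates 1 to 5, from 39, 47, 45, 557 and 270 counts. In COPD replicates 1 to 5 it was at 1.62, 1.63, 1.10, 1.02 and 8.02 CPM, from 22, 22, 15, 15 and 131 counts. Control replicates 4 and 5 and COPD replicate 5 were high, and the other 7 libraries lay between 1.02 and 2.99 CPM. COPD replicates 1 to 4, at 1.02 to 1.63 CPM and 15 to 22 counts, were below every control. COPD replicate 5 lay inside the control range, so the groups overlapped.

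The log2 fold change of Sln was -1.98 ± 0.81 (adjusted p = 0.290 by edgeR), with a 95% interval from 0.074-fold to 0.86-fold. Its highest library was 30.4 times its lowest, and 99.4% of all tested genes had a smaller pooled spread of log2 CPM within groups. The size of the difference turned on single libraries. Without control replicate 4 it was -1.08 (adjusted p = 0.560), and without COPD replicate 5 it was -3.004 (adjusted p = 0.0766). In the 7 libraries with Y-linked counts it was -2.97 (adjusted p = 0.217).

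The 10 libraries did not have the same order in Sln and in the slow-fibre sum. Control replicate 1 had the highest slow-fibre sum, 1823 TPM, and a Sln level of 2.201 CPM, while control replicate 5 had a slow-fibre sum of 458 TPM and a Sln level of 14.9 CPM. Control replicate 4 was high in both, and COPD replicate 5, the highest COPD library in Sln, also had the highest slow-fibre sum of the COPD libraries, 657 TPM. The slow myosin gene Myh7 was at 94.6, 53.7 and 8.82 TPM in control replicates 1, 4 and 5 and at 26.0 TPM in COPD replicate 5. Of the 5 heart muscle markers, 4 were in the table, with a summed level of 10.8 to 35.0 TPM in control and 11.2 to 51.4 TPM in COPD. Myh6, Nppa and Tnni3 were at most at 4.74, 1.68 and 0.99 TPM in any library, and the rest came from Myl4. The part of heart and slow-fibre genes in the Sln values was not tested. The genes whose profile over the 10 libraries lay closest to that of Sln were Adamts20, Ctps2 and Eif4ebp1, at root mean square differences of 0.96, 1.01 and 1.07 log2 units, none of them close beside the 1.60 of the SD of Sln itself.

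**Figure D3:**
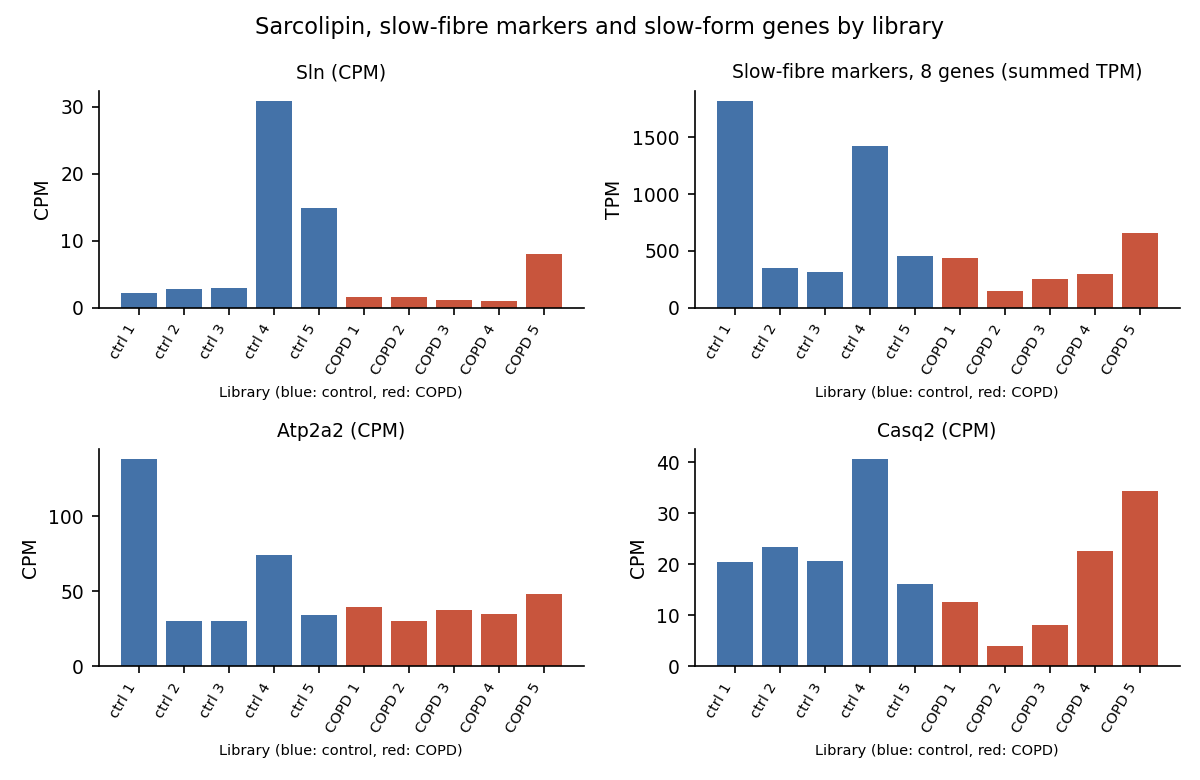
Bars, starting at 0, give Sln (CPM), the summed TPM of 8 slow-fibre markers, Atp2a2 (CPM) and Casq2 (CPM) in each library (blue, control; red, COPD). Sln is high in control replicates 4 and 5 and COPD replicate 5, and the slow-fibre sum is highest in control replicates 1 and 4.

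The transcript of sarcolipin was scarce beside that of the pump. In TPM, Sln was 0.0330%, 0.0438%, 0.0409%, 0.704% and 0.210% of Atp2a1 in control replicates 1 to 5. In COPD replicates 1 to 5 it was 0.0261%, 0.0256%, 0.0182%, 0.0159% and 0.0966%. COPD replicates 1 to 4 thus lay below every control in this ratio, and COPD replicate 5 lay inside the control range. The log2 ratio differed by -1.77 (exact permutation test, two-sided, p = 0.119, adjusted p = 0.238 over 4 ratios), and by -1.06 without control replicate 4. Other small inhibitors of the pump were also measured. Mrln, which encodes myoregulin, was more abundant than Sln in the TPM means, at 92.1 ± 34.1 TPM in control and 138 ± 44.5 TPM in COPD (SD, n = 5 each). Control replicate 4 was the exception, with 117 TPM of Sln and 47.5 TPM of Mrln.

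In CPM, Mrln was at 27.0, 15.7, 22.4, 10.3 and 27.6 in control replicates 1 to 5 and at 41.4, 37.9, 50.0, 34.1 and 17.3 in COPD replicates 1 to 5. All COPD libraries but replicate 5 were above every control. In log2 units the groups differed by 0.81 ± 0.30 (adjusted p = 0.243 by edgeR), and without COPD replicate 5 it was 0.99 (adjusted p = 0.0574). Pln, which encodes phospholamban of slow fibres and heart, was at 2.18 ± 0.503 TPM in control and 1.404 ± 0.803 TPM in COPD (log2 fold change on the count scale -0.43 ± 0.33, adjusted p = 0.591). Strit1, which encodes a peptide that relieves the inhibition of the pump, lay between 0 and 4.64 TPM and was not tested.

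**Figure D4:**
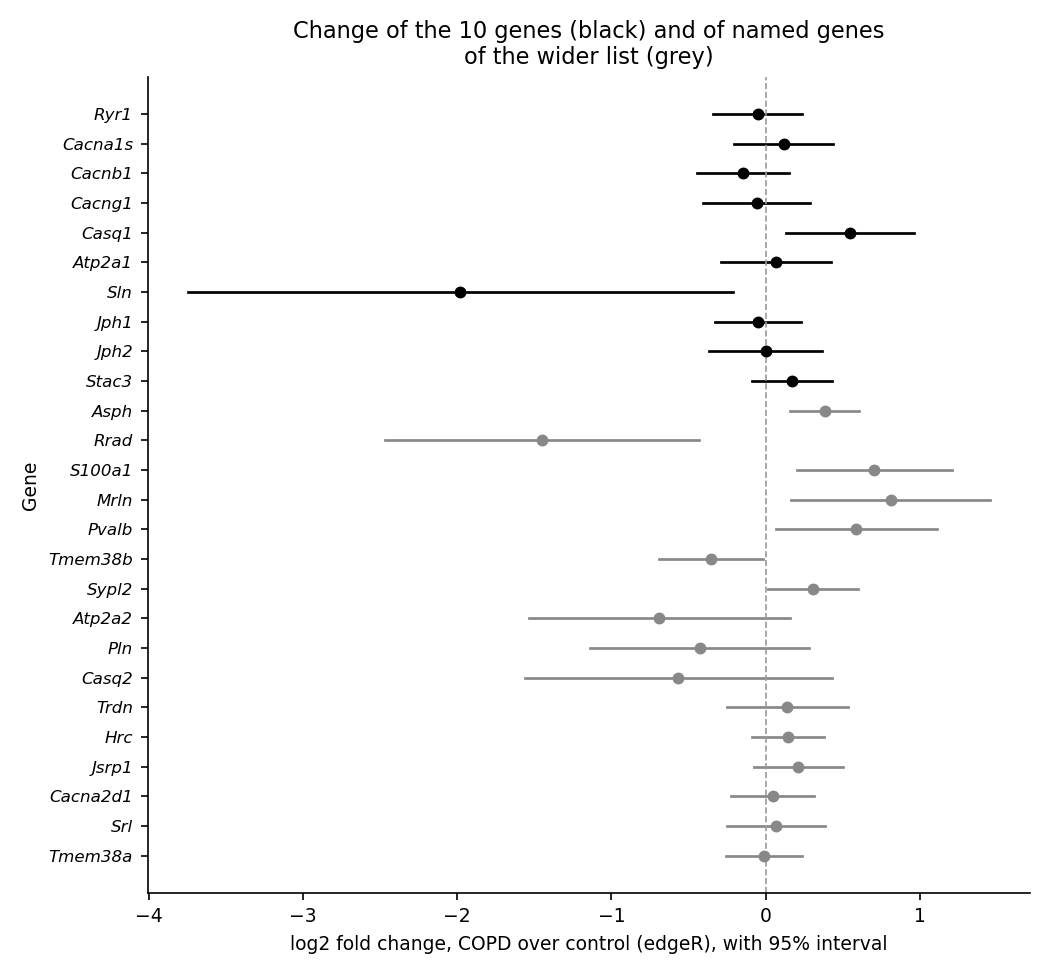
Points give the log2 fold change of COPD over control by edgeR, and lines its 95% interval, for the 10 genes (black) and named genes of the wider list (grey). Of the 10 genes, the interval lies to the right of 0 for Casq1 and to the left for Sln before any adjustment, and it spans 0 for the other 8.

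A wider list of 77 genes of muscle calcium handling also gave no call. Of these, 72 were tested and 0 passed by edgeR. Before adjustment, p was under 0.05 for 6 genes on the higher side (7.94% of all tested genes) and 3 on the lower side (6.64%). The median log2 fold change was 0.01, and in CPM the groups were apart for 1 of the 72 genes, Asph (2.84% of all tested genes). In TPM the groups of Asph overlapped. Of the tested genes, those of Itpr3, a release channel of another family, were narrowly apart (1.68 to 2.07 TPM in control, 0.82 to 1.67 TPM in COPD). In CPM the groups of Itpr3 overlapped (8.12 to 10.4 in control, 5.10 to 9.36 in COPD). The share of all genes apart in TPM is not given here, and on that scale 81.1% of all genes were below 0. DESeq2 called 2 genes of the list, beside 2.31% of all genes it tested: Asph, which was higher, and Rrad, which was lower. Without COPD replicate 5 edgeR called 1 gene, S100a1, beside 3.21% of all genes. In the 7 libraries with Y-linked counts it called 4, beside 3.70% of all genes: S100a1 and Rcan2 were higher and Casq2 and Pln were lower.

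Partners of the release channel were mixed. Asph encodes the locus of aspartyl hydroxylase and of junctin, which links calsequestrin to the channel, and the table does not tell these products apart. It was at 143, 129, 148, 160.0 and 145 CPM in control replicates 1 to 5 and at 164, 189, 173, 209 and 208 CPM in COPD replicates 1 to 5. All 5 COPD libraries were above all 5 controls, at a log2 fold change of 0.38 ± 0.10 (adjusted p = 0.131 by edgeR and 0.0113 by DESeq2). In TPM the groups overlapped, at 141 ± 14.2 in control against 162 ± 25.3 in COPD (SD, n = 5 each). Trdn, which encodes triadin, the other anchor of calsequestrin, was at 782 ± 112 and 862 ± 215 CPM (difference on the log2 scale 0.14 ± 0.18, adjusted p = 0.772).

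S100a1 encodes a calcium-binding protein that enhances opening of the release channel. It was at 98.2, 105, 116, 122 and 82.8 CPM in control replicates 1 to 5. In COPD replicates 1 to 4 it was at 182, 211, 219.7 and 165 CPM, above every control, while COPD replicate 5, at 77.1 CPM, was below every control. The log2 fold change was 0.70 ± 0.23 (adjusted p = 0.204 by edgeR), and without COPD replicate 5 it was 0.89 (adjusted p = 0.00826). Of the 12 tested genes of release channels and their regulators, 7 were above 0 and 5 below, with a median of 0.08. The other release channel forms were scarce, with Ryr3 at 0.03 to 1.04 TPM and Ryr2 at no more than 0.05 TPM.

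Other genes of the reticulum and the junction did not pass the test. Hrc, a calcium-binding protein of the reticulum, had a log2 fold change of 0.15 ± 0.11, and Jsrp1, a junctional protein that binds the voltage sensor and calsequestrin, one of 0.21 ± 0.13. Srl, which encodes sarcalumenin, had one of 0.06 ± 0.15 and Tmem38a, a potassium channel subunit of the reticulum, one of -0.01 ± 0.11. Adjusted p by edgeR ran from 0.494 to 0.976 for these 4. The related channel gene Tmem38b was at 42.6 ± 7.34 CPM in control against 33.3 ± 6.51 CPM in COPD (SD, n = 5 each; difference on the log2 scale -0.36 ± 0.16, adjusted p = 0.316). Sypl2, which encodes mitsugumin 29 of the triad, was at 481 ± 85.1 and 594 ± 62.8 CPM (difference on the log2 scale 0.30 ± 0.13, adjusted p = 0.319). The voltage sensor subunit gene Cacna2d1 was at 366 ± 52.6 and 377 ± 37.5 CPM (difference on the log2 scale 0.04 ± 0.12, adjusted p = 0.905).

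The lowest fold change of the wider list was that of Rrad, which encodes a small G protein that inhibits voltage-gated calcium channels. It was at 8.41, 3.25, 9.91, 6.60 and 21.5 CPM in control replicates 1 to 5 and at 1.48, 6.29, 2.72, 2.85 and 4.78 CPM in COPD replicates 1 to 5. The groups overlapped, and control replicate 5 was far above the rest. The log2 fold change was -1.45 ± 0.47 (adjusted p = 0.197 by edgeR, 0.0458 by DESeq2), and it was -0.95 without control replicate 5. Its relatives Gem and Rem1 had log2 fold changes of -0.20 ± 0.28 and -0.19 ± 0.25.

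Pvalb encodes parvalbumin, the calcium buffer of fast fibres that speeds relaxation. It was at 11654, 9517, 17416, 6569 and 9906 CPM in control replicates 1 to 5 and at 20556, 18974, 16579, 11549 and 15042 CPM in COPD replicates 1 to 5. As for Casq1, control replicate 4 was lowest, but here both control replicates 1 and 3 lay inside the COPD range. The log2 fold change was 0.59 ± 0.24 (adjusted p = 0.288). It was 0.45 without control replicate 4 (adjusted p = 0.409) and 0.81 without control replicate 3 (adjusted p = 0.149). The fast-fibre list had 8 of 9 genes above 0 with a median of 0.23 and 0 past the threshold, and the part of fibre make-up in the values of Casq1, Mrln and Pvalb was not tested.

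The medians of the groups of the wider list not taken up above, apart from the naming of Rcan2, lay close to 0. The 6 genes of store-operated calcium entry had a median log2 fold change of -0.01, with 3 above 0 and 3 below. The 9 genes of the transverse tubule and membrane had a median of 0.02, the 6 of the mitochondrial uniporter one of 0.02, and the 8 calcium-activated kinase and calcineurin genes one of 0.01. None of these genes had an unadjusted p under 0.05 by edgeR with all libraries. Rcan2, of the last of these groups, had a log2 fold change of 0.47 ± 0.26 in that fit (adjusted p = 0.435). In the libraries with Y-linked counts its value by edgeR was 0.98 (adjusted p = 0.00612). Of the groups with genes taken up above, the median was -0.34 for the 4 tested genes of calcium pumps and their small inhibitors. It was -0.20 for the 3 genes Rrad, Gem and Rem1 and -0.07 for 6 genes of voltage sensor subunits and STAC proteins. For 10 genes of the calcium store and junction it was 0.10, and for 8 of the cytosolic buffer, surface pumps and exchangers 0.04.

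**Figure D5:**
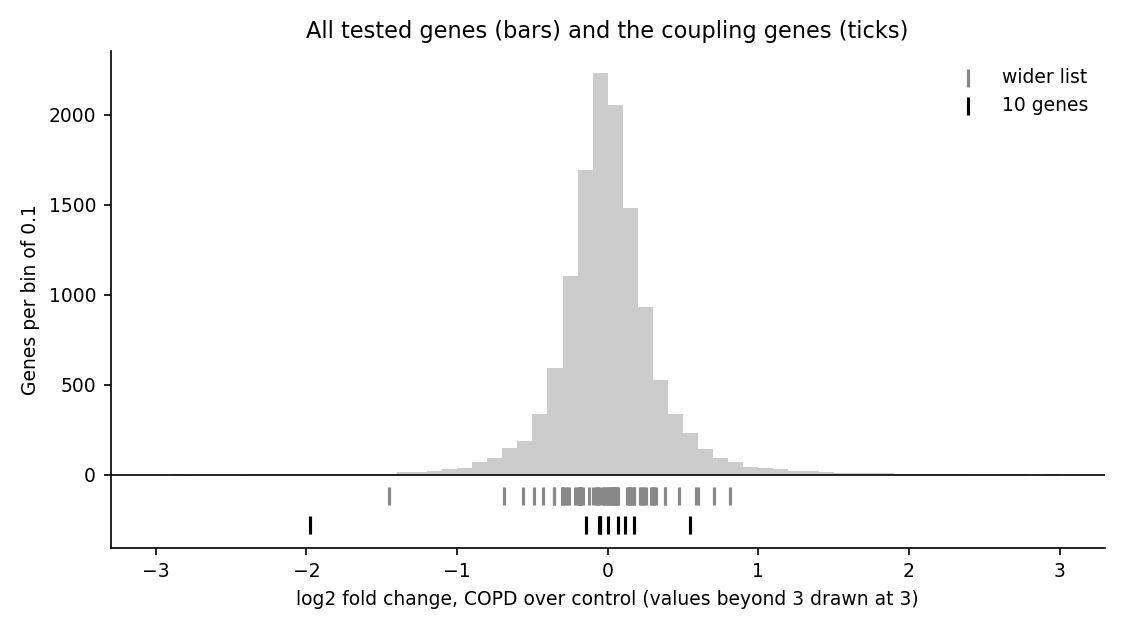
Grey bars count all 12697 tested genes by log2 fold change of COPD over control (bins of 0.1), and ticks under them mark the tested genes of the wider list (grey) and the 10 genes (black). Of the 10, only Sln at -1.98 and Casq1 at 0.55 lie outside the range from -0.15 to 0.17.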

How the data were processed

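Per the file headers and values, the authors deposited expected counts per gene symbol (30.7% not whole) and TPM per gene, 1 column per sample. Tools named without roles in the submitters' processing notes are RSEM 1.2.12, Bowtie2 2.2.5, HISAT2 2.0.4 and DESeq2 1.4.5, and the build is mm9. Whether counting used strand is not stated in the labels. Expected counts were rounded, filtered with filterByExpr and scaled by TMM, and all genes were fitted with edgeR 4.0.16 (R 4.3.3, quasi-likelihood) and p-values adjusted by Benjamini-Hochberg (threshold 0.05). Intervals are 95% from the standard error, taken as the fold change over the square root of F. TPM served to compare levels between genes. Before the TMM factors are applied, 1 CPM stands for 14.1 to 17.3 counts, so the scarce Sln carries more counting error. Alternatives used DESeq2 1.42.0, limma 3.58.1, voom, other scalings and filters, a replicate block, Y-linked counts and leaving out each library. edgeR was tested on simulated data (12577 genes). Figures used matplotlib 3.10.9.

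The 10 genes and all lists were chosen with earlier results of these data known. Named were the 10 genes and, of the wider list, the 8 with the smallest p and 10 fixed genes; 1 of the former is not reported here. Rcan2, Itpr3, Ryr2, Ryr3, Strit1, Gem and Rem1 were added after their values were seen. Further marker lists (macrophage, adipocyte, tendon, endothelium, Schwann cell, smooth muscle, red cell) had 0 genes past the threshold. Replicate numbers do not pair the samples in the labels.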

Additional observations from a re-analysis of the deposited data

Results flagged for a closer look

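In groups of 5 libraries, a value was singled out where its gap to the nearest library, divided by the range of the group, was above 0.71 (Dixon's test). For independent groups of normally distributed values, chance alone marks about 1 in 20. Of the 28 groups examined, 5 were marked. These groups share libraries and the ratios share genes with single-gene groups, so the 2 rates cannot be compared. Atp2a1 was at 59800.4 CPM in COPD replicate 5, against 43705 to 45972 CPM in the other COPD libraries. Sln was at 8.02 CPM in COPD replicate 5, against 1.02 to 1.63 CPM in the others. The TPM ratio of Sln to Atp2a1 was 0.704% in control replicate 4 (0.0330% to 0.210% in the other controls) and 0.0966% in COPD replicate 5 (0.0159% to 0.0261% in the other COPD libraries). The TPM ratio of Casq2 to Casq1 was 1.68% in control replicate 4, against 0.374% to 0.660% in the other controls. These 5 values came from 2 of the 10 libraries.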

How the results depend on the processing

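None of the 10 genes passed the threshold under any of the 22 alternatives, in 220 values, of which 37 in 7 genes had the opposite sign to the reported one. Casq1, Sln and Cacnb1 kept their sign in all 22. Over all genes, edgeR called 8, against 17 with no filter, 414 by DESeq2, 137 by voom, 67, 65 and 2 by limma on log2(TPM + 1), log2(TPM + 0.1) and log2(TPM + 1) with no filter, 216 with a term for Y-linked counts and 488 in the libraries with Y-linked counts. Leaving out 1 library gave 0 to 410 calls: 0 without COPD replicate 2, 1 without control replicate 3 or 4, 2 without control replicate 5, 3 without control replicate 1 or 2, 5 without COPD replicate 4, and 410 without COPD replicate 5. At an unadjusted p under 0.05 there were 1851 genes with all libraries. Of the wider list 2 were called by DESeq2, 4 in the libraries with Y-linked counts, and 0 to 1 when 1 library was left out. The causes of these differences were not tested.

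Scaling by library size alone moved the median of all genes to -0.17 and that of the 10 to -0.17, and changed 7 higher and 1 lower call to 2 higher and 4 lower; upper-quartile scaling gave 7 higher and 3 lower. On the TPM scale the medians were -0.18 and -0.22 with a pseudocount of 1. Values of opposite sign by library size alone were -0.029 for Cacna1s, -0.078 for Atp2a1, -0.15 for Jph2, -0.0074 for Trdn, -0.0068 for Hrc, -0.11 for Cacna2d1 and -0.083 for Srl. By limma on log2(TPM + 1), with or without the filter, they were -0.077 for Cacna1s, -0.12 for Atp2a1, -0.19 for Jph2, -0.025 for Stac3, -0.065 for Hrc, -0.14 for Cacna2d1 and -0.092 for Srl, and with a pseudocount of 0.1 they rounded to the same values but for -0.078 for Cacna1s. By voom they were -0.025 for Atp2a1, -0.057 for Jph2 and -0.010 for Cacna2d1. Jph2 was at -0.029 with upper-quartile scaling and -0.0075 with no filter. With the Y-linked term they were 0.030 for Ryr1, -0.054 for Cacna1s, -0.034 for Atp2a1 and 0.079 for Jph1, and in the libraries with Y-linked counts 0.040 for Ryr1, -0.043 for Cacna1s, -0.024 for Atp2a1 and 0.090 for Jph1. Leaving out 1 library gave ranges that crossed 0 for Ryr1 (-0.12 to 0.0019), Cacng1 (-0.16 to 0.055), Atp2a1 (-0.040 to 0.12), Jph1 (-0.11 to 0.024), Jph2 (-0.11 to 0.085), Cacna2d1 (-0.039 to 0.10), Srl (-0.027 to 0.14) and Tmem38a (-0.059 to 0.055).

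Same-numbered control and COPD libraries did not deviate together (correlations from -0.14 to 0.04, and no library was closest to its own number). With the replicate number as a block, edgeR called 7 genes, 0 of the 10 and 0 of the wider list, with Casq1 at 0.60 and Sln at -1.62. Of the 10 genes, Sln had the fewest counts, 15 to 557 a library.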
